A study of Mus musculus with 2 samples.

Results

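The transcripts examined here are those of the signalling chains that carry the T cell receptor (TCR) to the cell surface and relay its signal, together with a related adaptor and a pair of co-receptors. They are Cd3d, Cd3e, Cd3g, Cd247, Fcer1g, Cd5 and Cd6, 7 of the 32285 genes listed in the count files, and they were taken by gene symbol alone. All 7 were listed and detected in both libraries. They were counted cell by cell in γδ T cells of the lung, in 2 droplet libraries with 1 for each group, from mice of 5-7 weeks without infection. The first, from C57BL/6NCrl mice (WT), held cells sorted as negative for the Vγ1 chain. The other library came from mice of the strain B6.Cg-Tcrgtm1lku(B6.Vg4-/-Vg6-/-), which lack Vγ4 and Vγ6, and held cells sorted as positive for Vγ1. Genotype, strain, sort and library therefore differed together and cannot be told apart. The libraries also differed in Y-linked transcripts, of which 387 of 519 V6, 291 of 402 V4 and 2852 of 2867 V1 cells (the receptor groups described below) held no UMI. How many mice gave each library is not stated in the sources used here, and with 1 library per group no test was run.

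The receptor genes were read first, because they check the labels. Tcrg-V6 had 2906 transcript counts (unique molecular identifiers, UMIs) in the WT library and 0 in the other, and Tcrg-V1 had 251 and 5449. For Tcrg-V4 the WT count was 715, and 1291 UMIs came from the library of the mice that should lack it. These sums preceded the removal of cells with myeloid or B cell genes, after which 982 cells of that library held a Tcrg-V4 UMI. That library is called KO-labelled throughout. After the filters, 2421 WT and 6574 KO-labelled cells were analysed, of which 64.0% and 58.7% had a UMI of Trdc or a Tcrg constant gene and 92.0% and 96.3% a UMI of Cd3d, Cd3e or Cd3g. The 2 libraries shared 23 cell barcodes.

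Cells were compared in 3 receptor groups. V6 cells were the 519 WT cells with UMIs of Tcrg-V6 and of no other Tcrg-V gene, and V4 cells were the 402 WT cells defined likewise by Tcrg-V4. V1 cells were the 2867 KO-labelled cells with a Tcrg-V1 UMI. Unlike the other groups they could also hold UMIs of other Tcrg-V genes, and 2261 of them had none of Tcrg-V4 or Tcrg-V6. A UMI of a Tcrg-V gene does not show that its chain is at the surface, and Tcrg-V4 UMIs were also read in the KO-labelled library. At least 2 UMIs of the defining gene were found in 408 V6, 96 V4 and 1329 V1 cells. The median depth of the full V6, V4 and V1 groups was 3601, 3407 and 4181 UMIs per cell. Each group was also split by detection of Tmem176b, a transmembrane protein gene typical of IL-17-type lymphocytes, of Ly6c2, a surface protein of some memory-like and cytotoxic T cells, and of Gzma, which encodes the cytotoxic protease granzyme A. Levels are UMIs per 1000000 UMIs of a group (CPM), and all intervals are 95% intervals that cover counting error only.

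A TCR has no signalling tail of its own. CD3γ, CD3δ, CD3ε and the ζ chain, encoded by Cd3g, Cd3d, Cd3e and Cd247, carry the tyrosine motifs (ITAMs) that are phosphorylated by LCK and then bind ZAP70. The surface receptor of mouse γδ T cells is built with CD3γε and ζ and lacks CD3δ, although Cd3d is transcribed. Fcer1g encodes FcRγ, an ITAM adaptor best known from Fc and NK cell receptors of myeloid, mast and NK cells, which can pair with or replace ζ in some T cells. CD5 and CD6 are scavenger receptor cysteine-rich proteins of T cells. CD5 dampens TCR signals, and CD6 binds the adhesion molecule ALCAM.

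On GRCm38, Cd3g (9:44969572-44980431, reverse strand) and Cd3d (9:44981786-44987339, forward strand) lie head to head with 1355 bases between their starts, and Cd3e (9:44998740-45009627, reverse strand) lies 11400 bases beyond Cd3d. Cd247 (1:165788681-165877277, forward strand) and Fcer1g (1:171229572-171234365, reverse strand) share chromosome 1. Cd5 (19:10717116-10739002) and Cd6 (19:10789341-10830058) are neighbours on the reverse strand, 50338 bases apart. All are protein-coding. Cd3e overlaps Gm48719 on the opposite strand, and Cd247 overlaps Pou2f1 and Gm37469 on the opposite strand and Gm16565 on its own. Whether strand was used in counting is not stated in the sources used here, and reads in these overlaps may be shared.

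RefSeq promoter windows of GRCm38.p6 were found for 6 of the 7 genes, all but Cd6. The 250 bases before the start are shown for the head-to-head pair Cd3d and Cd3g, whose proportions differed between receptor groups, and for Cd247 and Fcer1g, the adaptor pair whose ratio varied between groups. Each runs 5′ to 3′ in the direction of its gene. Capitals mark matches, on either strand, to 3 motif cores of T cell transcription factors: AGGAAG (ETS), TGTGGT (RUNX) and CTTTGA (TCF/LEF). These letters do not overlap one another in any window shown.
Cd3d, chr9:44981536-44981785, forward strand: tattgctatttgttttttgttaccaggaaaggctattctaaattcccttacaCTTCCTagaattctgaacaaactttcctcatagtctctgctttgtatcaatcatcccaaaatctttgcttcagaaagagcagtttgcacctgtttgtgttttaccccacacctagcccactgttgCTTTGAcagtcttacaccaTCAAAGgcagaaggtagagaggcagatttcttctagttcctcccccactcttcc
Cd3g, chr9:44980432-44980681, reverse strand: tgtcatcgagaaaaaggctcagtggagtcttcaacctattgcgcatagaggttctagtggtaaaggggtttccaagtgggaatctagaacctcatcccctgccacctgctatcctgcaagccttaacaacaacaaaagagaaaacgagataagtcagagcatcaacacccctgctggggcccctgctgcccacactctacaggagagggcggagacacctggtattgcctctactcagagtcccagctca
Cd247, chr1:165788431-165788680, forward strand: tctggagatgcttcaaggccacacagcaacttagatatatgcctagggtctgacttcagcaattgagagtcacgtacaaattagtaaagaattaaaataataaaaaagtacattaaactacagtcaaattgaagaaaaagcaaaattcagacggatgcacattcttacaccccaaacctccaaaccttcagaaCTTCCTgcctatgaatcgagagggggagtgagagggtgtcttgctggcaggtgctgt
Fcer1g, chr1:171234350-171234599, reverse strand: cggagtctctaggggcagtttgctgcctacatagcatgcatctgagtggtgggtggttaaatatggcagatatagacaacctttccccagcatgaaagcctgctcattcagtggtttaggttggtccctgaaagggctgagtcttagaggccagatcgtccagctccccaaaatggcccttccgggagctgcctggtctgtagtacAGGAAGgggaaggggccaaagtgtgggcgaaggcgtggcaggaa
The Cd3d window held 1 ETS match and 2 TCF/LEF matches, 73 and 54 bases before the start, whereas the Cd3g window held none of the 3. Cd247 and Fcer1g each held 1 ETS match, 57 and 44 bases before the start. Cd3e and Cd5, not printed, held 2 ETS matches each. No RUNX match was found in the 6 windows. Over all 32851 windows of this length, AGGAAG occurred in 29.5%, TGTGGT in 14.0% and CTTTGA in 13.8%, so single matches are frequent. They are descriptions of letters and not sites.

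All 4 receptor chains were abundant in every group. Summed over Cd3d, Cd3e, Cd3g and Cd247 they reached 3716 CPM in V6 cells, 2645 CPM in V4 cells and 3101 CPM in V1 cells, with a median of 13, 9 and 13 UMIs per cell. Within this sum, the V6 cells were poor in Cd3d. Cd3d, whose protein is left out of the mouse γδ receptor, made up 19.7% of the chain UMIs in V6 cells (18.8 to 20.6), 25.4% in V4 cells (24.0 to 26.7) and 27.1% in V1 cells (26.7 to 27.6). The difference between V6 and V4 cells, both from the WT library, was -5.64 percentage points (-7.28 to -4.03), and that between V1 and V6 cells was 7.43 points (6.41 to 8.43). V1 cells were 1.79 points above V4 cells (0.354 to 3.18), but after every cell was thinned to 2000 UMIs this became -0.23 points, so no order of these 2 groups is read from it.

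Cd3g, the gene opposite Cd3d, held the reverse order within the WT library. Its share was 34.0% in V6 cells and 29.3% in V4 cells, a difference of 4.71 points (2.92 to 6.48), and 31.7% in V1 cells. Cd3e, the partner of both CD3γ and CD3δ, stayed nearest to constant, with 33.3% in V6 cells, 32.0% in V4 cells and 31.7% in V1 cells. The interval of its V6 minus V4 difference ran from -0.478 to 3.13 points, and that of V1 minus V4 from -1.83 to 1.19. The V1 minus V6 difference was -1.64 points, with an interval that left out 0 (-2.81 to -0.476). As levels, Cd3d differed little between V6 and V4 cells (733 and 671 CPM), whereas Cd3e (1238 and 846 CPM) and Cd3g (1262 and 774 CPM) were higher in V6 cells, by 0.55 and 0.71 on the log2 scale. Against V4 cells, the lower Cd3d share of V6 cells thus went with more Cd3e and Cd3g and not with less Cd3d. Against V1 cells, V6 cells had both less Cd3d and more Cd3e and Cd3g. The log2 ratios of V1 over V6 cells were 0.20 for Cd3d (0.12 to 0.28), -0.33 for Cd3e and -0.36 for Cd3g.

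**Figure D1:**
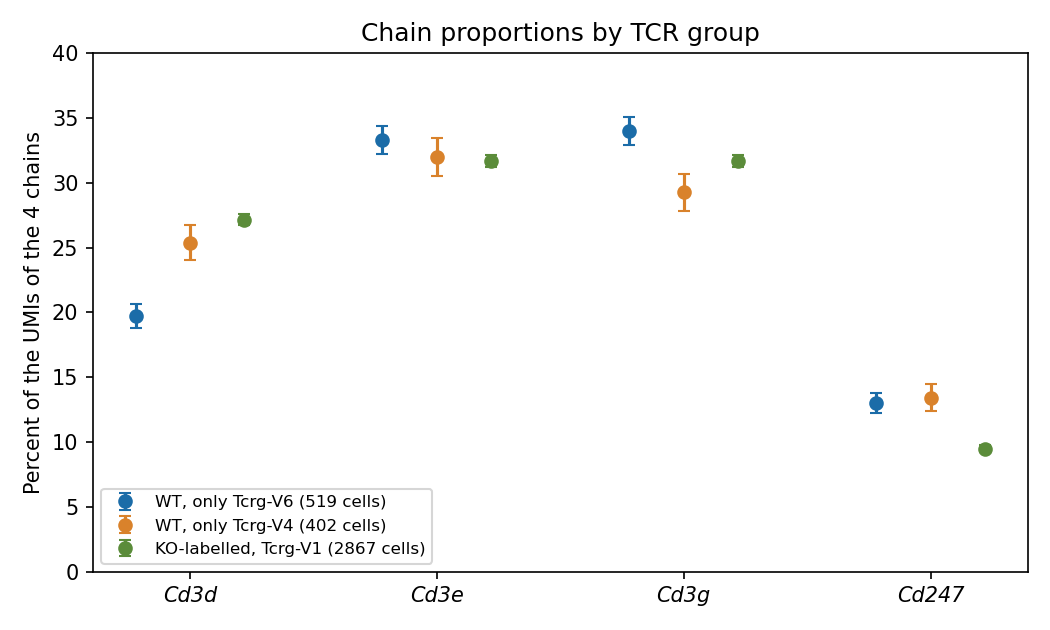
Share of the UMIs of Cd3d, Cd3e, Cd3g and Cd247 taken by each chain (percent, vertical axis) in V6 cells (519, blue), V4 cells (402, orange) and V1 cells (2867, green), with exact 95% intervals as bars. V6 cells lie lowest for Cd3d at 19.7% and highest for Cd3g at 34.0%, and V1 cells lie lowest for Cd247 at 9.50%.

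The ζ chain gene Cd247 set the V1 cells apart. It took 13.0% of the chain UMIs in V6 cells (12.2 to 13.8) and 13.4% in V4 cells (12.4 to 14.5), and their difference of -0.405 points had an interval of -1.73 to 0.886. In V1 cells it took 9.50% (9.22 to 9.78), with a difference of -3.92 points to V4 cells (-5.04 to -2.86) and of -3.51 points to V6 cells (-4.35 to -2.71). As a level, Cd247 stood at 483 CPM in V6 cells (453 to 515), 355 CPM in V4 cells (325 to 386) and 295 CPM in V1 cells (285 to 304). None of the 3 intervals overlap. These level differences stayed under 2-fold, with log2 ratios of 0.45 for V6 over V4 cells, -0.27 for V1 over V4 cells and -0.72 for V1 over V6 cells.

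Fcer1g and Cd6 differed by more than any of the 4 chains in all 3 comparisons, and Cd5 did so in both comparisons with V1 cells. Fcer1g, the alternative adaptor, stood at 4.07 CPM in V6 cells (8 UMIs, 1.76 to 8.01), 85.9 CPM in V4 cells (130 UMIs, 71.8 to 102) and 32.6 CPM in V1 cells (438 UMIs, 29.6 to 35.8). V6 cells were thus 21.1-fold below V4 cells of the same library (log2 ratio -4.40, -5.64 to -3.38), and V1 cells 2.63-fold below V4 cells and 8.02-fold above V6 cells. The WT groups differed in state, with Tmem176b in 88.1% of V6 and 41.3% of V4 cells. In cells with Tmem176b but neither Ly6c2 nor Gzma, Fcer1g was not lower in V6 cells (5 UMIs in 448 V6 and 0 in 157 V4 cells). In cells with none of these genes it stood at 6.77 CPM in V6 (1 UMI) and 31.4 CPM in V4 cells (14 UMIs). The part of state in the difference was not tested. Summed over all cells, the inhibitory co-receptor gene Cd5 was nearly level in the WT groups, at 21.4 CPM in V6 cells (15.4 to 28.9) and 20.5 CPM in V4 cells (13.9 to 29.1), and stood at 64.5 CPM in V1 cells (60.3 to 69.0). Within 1 state the WT groups were less level, on few UMIs. With Tmem176b, Cd5 stood at 18.4 CPM in V6 and 6.66 CPM in V4 cells, and without it at 51.8 and 29.6 CPM. In cells with none of Tmem176b, Ly6c2 and Gzma it stood at 27.1 and 24.7 CPM. Its neighbour Cd6 ascended over the groups, from 5.08 CPM in V6 cells (10 UMIs, 2.44 to 9.35) through 22.5 CPM in V4 cells (34 UMIs, 15.6 to 31.4) to 49.5 CPM in V1 cells (45.9 to 53.5). With Tmem176b alone, V6 and V4 cells held 4 and 3 Cd6 UMIs (2.33 and 5.41 CPM), too few to order them.

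Counted against all genes with at least 30 UMIs, 2 of the 7 genes, Fcer1g and Cd6, lay more than 2-fold lower in V6 than in V4 cells and 0 higher, beside 4.9% of all 8046 genes lower and 5.42% higher. In V1 over V4 cells, 2 of 7 were higher (Cd5 and Cd6) and 1 lower (Fcer1g), beside 5.62% and 3.43% of 10685 genes. In V1 over V6 cells, Fcer1g, Cd5 and Cd6 were higher, 3 of 7 beside 11.5% of 10746 genes, and 0 were lower beside 6.92%. The median log2 ratio of the 7 genes was 0.13, 0.33 and 0.20 in these comparisons, against -0.01, 0.08 and 0.10 over all genes. The first 2 comparisons share the V4 cells, and the last 2 share the V1 cells. The lower Fcer1g of V1 than of V4 cells is the least firm of these values, since thinning to 2000 UMIs brought its log2 ratio from -1.40 to -0.70. The higher Cd6 of V1 over V4 cells had a log2 ratio of 1.14 (0.64 to 1.68), and 0.75 when at least 2 UMIs of the Tcrg-V gene were required.

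**Figure D2:**
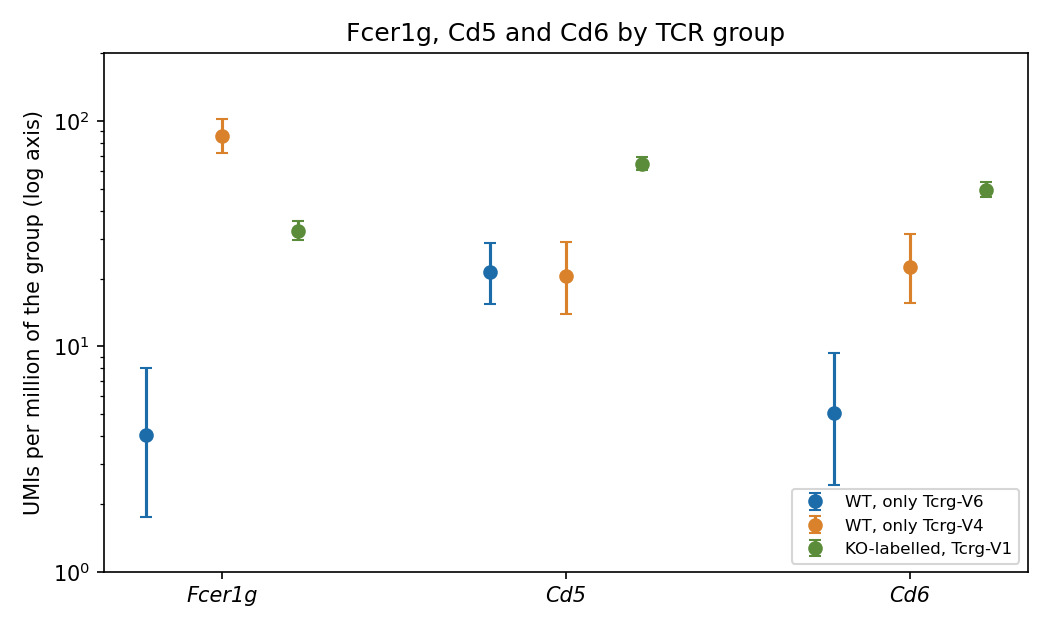
Levels of Fcer1g, Cd5 and Cd6 in CPM (log axis) in V6 cells (blue), V4 cells (orange) and V1 cells (green), with exact 95% Poisson intervals as bars. Fcer1g is highest in V4 cells at 85.9 CPM, whereas Cd5 and Cd6 are highest in V1 cells at 64.5 and 49.5 CPM.

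Among V1 cells, Cd247 was lower in those with Tmem176b. Cells with and without a Tmem176b UMI numbered 457 and 62 among V6 cells, 166 and 236 among V4 cells, and 903 and 1964 among V1 cells. In V1 cells, Cd247 stood at 180 CPM with Tmem176b (168 to 193) and 352 CPM without it (340 to 365), a log2 ratio of -0.97 (-1.08 to -0.85). In V4 cells it stood at 350 and 358 CPM, a log2 ratio of -0.04 (-0.29 to 0.22), and in V6 cells at 475 and 570 CPM, a log2 ratio of -0.26 (-0.57 to 0.05). Whether these ratios differ between the groups was not tested. As a share of chain UMIs, Cd247 took 6.30% with and 10.9% without Tmem176b in V1 cells, 12.7% and 13.9% in V4 cells, and 12.6% and 18.2% in V6 cells. The share was thus lower with Tmem176b in V6 cells too. The differences were -4.63 points in V1 (-5.18 to -4.07), -1.24 in V4 (-3.34 to 0.92) and -5.57 in V6 cells (-9.11 to -2.45). The V6 cells without Tmem176b were few and shallower, at a median of 2620 UMIs against 3658.

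Set against each other within 1 state, Tmem176b+ V1 cells had less Cd247 than Tmem176b+ V4 cells (log2 ratio -0.96, -1.18 to -0.73) and than Tmem176b+ V6 cells (-1.40, -1.54 to -1.26). Without Tmem176b, V1 and V4 cells stood at nearly the same Cd247 level (log2 ratio -0.03, -0.19 to 0.14), although its share of chain UMIs was still lower in V1 cells (10.9% against 13.9%). The other chains of the Tmem176b+ V1 cells were close to those of Tmem176b+ V4 cells, with log2 ratios of 0.09 for Cd3d, 0.15 for Cd3e and 0.22 for Cd3g. When cells were thinned to 2000 UMIs and grouped again on the thinned counts, a Cd247 UMI was found in 25.2% of Tmem176b+ V1 cells (112 of 445) and 45.0% of those without Tmem176b (596 of 1324). It was found in 57.0% and 54.4% of V4 cells with and without Tmem176b, and in 60.5% and 60.4% of V6 cells.

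**Figure D3:**
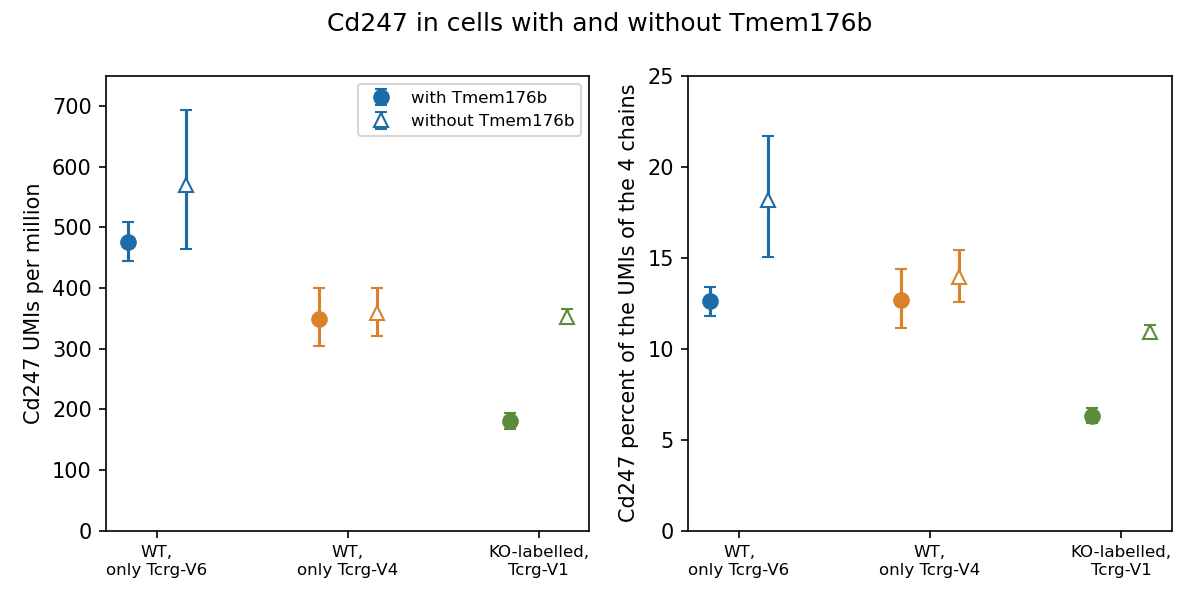
Cd247 in cells with (filled circles) and without (open triangles) a Tmem176b UMI, in V6 (blue), V4 (orange) and V1 cells (green), as CPM on the left and as percent of the UMIs of the 4 chains on the right, with exact 95% intervals. V1 cells with Tmem176b lie lowest on both axes, at 180 CPM and 6.30%.

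In V1 cells with Tmem176b, the share of Cd3d was lower (24.4% against 28.4%, a difference of -4.04 points), that of Cd3e 5.32 points higher and that of Cd3g 3.35 points higher. As levels, Cd3d was lower there (697 against 915 CPM), and Cd3e (1012 against 967 CPM) and Cd3g (973 against 987 CPM) lay within 1.05-fold. In V4 cells the interval of every chain's difference in share held 0, and as levels Cd3e and Cd3g both had a log2 ratio of 0.19 (0.03 to 0.35 and 0.02 to 0.36). In V6 cells, Cd3g took 34.4% with and 28.1% without Tmem176b, a difference of 6.37 points (2.29 to 10.2). The co-receptor genes were lower on the Tmem176b+ side. Cd5 stood at 33.3 against 80.3 CPM in V1 cells, 6.66 against 29.6 CPM in V4 cells (4 and 27 UMIs) and 18.4 against 51.8 CPM in V6 cells (33 and 9 UMIs). Of these 9 UMIs, 4 came from the 55 V6 cells that also lacked Ly6c2 and Gzma. Those cells stood at 27.1 CPM (7.38 to 69.4), against 16.9 CPM (11.3 to 24.2) in V6 cells with Tmem176b alone. Cd6 stood at 33.3 against 57.7 CPM in V1 cells and 6.66 against 32.9 CPM in V4 cells (4 and 30 UMIs), and at 9 and 1 UMIs it was too rare to compare in V6 cells.

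With Tmem176b, 2 of 7 genes (Fcer1g and Cd5) lay more than 2-fold lower in V1 cells, beside 5.31% of all genes tested. In V4 cells, 3 of 7 (Fcer1g, Cd5 and Cd6) were lower beside 6.75%. In V6 cells 1 of the 5 genes with enough UMIs was lower beside 8.42%, Cd5, which had 9 UMIs without Tmem176b. No member was more than 2-fold higher with Tmem176b in these groups, beside 6.2%, 4.18% and 7.31% of genes. Cd247 in V1 cells lay at the 2-fold line, at 1.95-fold lower. Between V1 and V4 cells that both had Tmem176b, 2 of 7 genes were higher (Cd5 and Cd6, at 33.3 against 6.66 CPM each) beside 8.13%, and 0 were lower beside 2.83%. Between those without Tmem176b, 1 of 7 was higher (Cd5) beside 5.42% and 1 lower (Fcer1g) beside 4.12%. In V1 over V6 cells that both had Tmem176b, 2 of 7 were higher (Fcer1g and Cd6) beside 6.22%, and Cd247 was lower, 1 of 7 beside 3.86%.

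Fcer1g was higher in cells with Ly6c2 in both libraries. In V4 cells it stood at 247 CPM with Ly6c2 (112 UMIs in 35 of 99 cells, 203 to 297) and 17.0 CPM without (18 UMIs in 7 of 303 cells, 10.1 to 26.8), a log2 ratio of 3.86 (3.14 to 4.67). In V1 cells it stood at 98.3 CPM with Ly6c2 (308 UMIs in 106 of 617 cells) and 12.6 CPM without (130 UMIs in 54 of 2250 cells), a log2 ratio of 2.96 (2.66 to 3.27). V6 cells with Ly6c2 numbered 15 and were not compared. The Ly6c2+ V4 cells were deeper than the rest, at a median of 4475 against 3267 UMIs, whereas the V1 sides were close, at 4253 and 4147. After thinning to 2000 UMIs an Fcer1g UMI was found in 20.8% of Ly6c2+ V4 cells (10 of 48) and 2.39% of the others (5 of 209), and in 13.2% (40 of 304) and 1.77% (26 of 1465) of V1 cells.

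Fcer1g of V1 and V4 cells was also compared on each side of this split. Between Ly6c2+ cells, V1 over V4, the log2 ratio was -1.33 (-1.65 to -1.0), and between cells without Ly6c2 it was -0.43 (-1.14 to 0.37). Whether these ratios differ from each other was not tested. Thinning to 2000 UMIs brought the first to -0.60, and the second became 0.15 when cells with a myeloid or mast cell transcript were left out. With Tmem176b, Fcer1g was lower, at 20.0 against 129 CPM in V4 cells and 14.4 against 41.8 CPM in V1 cells. With Gzma it was higher in V1 cells, at 70.2 CPM (54 UMIs in 16 of 133 cells) against 30.3 CPM, a log2 ratio of 1.21 (0.77 to 1.62) that fell under 2-fold in 4 of the alternatives, to between 0.80 and 0.93, and reached 1.96 on thinning. Gzma was found in 25 V4 cells and 1 V6 cell, too few to compare.

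Because FcRγ and ζ are related adaptors, Fcer1g UMIs were counted per 100 Cd247 UMIs, a ratio read between groups and not as a ratio of proteins. It was 0.841 in V6 cells (0.362 to 1.66), 24.2 in V4 cells (19.8 to 29.4) and 11.1 in V1 cells (10.0 to 12.2). With Ly6c2 it reached 84.2 in V4 cells (64.9 to 109) and 36.0 in V1 cells (31.5 to 41.1), whereas without Ly6c2 the 2 groups stood close together, at 4.46 (2.61 to 7.13) and 4.2 (3.49 to 5.0). When each cell was placed by which of Tmem176b, Ly6c2 and Gzma it carried alone, the ratio was 0.605 in V6 cells with Tmem176b alone (5 Fcer1g UMIs), 0 of 199 Cd247 UMIs in the 157 such V4 cells and 1.94 in the 814 such V1 cells. It was 71.8 in V4 cells and 33.0 in V1 cells with Ly6c2 alone, and 0.552 in V1 cells with Gzma alone (1 Fcer1g UMI, 76 cells). The V1 cells with Gzma but without Ly6c2 and Tmem176b therefore held next to no Fcer1g, and their Cd247 took 12.7% of chain UMIs. Cells with none of the 3 genes lay between, at 8.24 in V4 and 4.72 in V1 cells. The 131 V1 cells with more than 1 of the 3 genes stood at 48.2 (93 Fcer1g UMIs, 37.2 to 62.0).

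**Figure D4:**
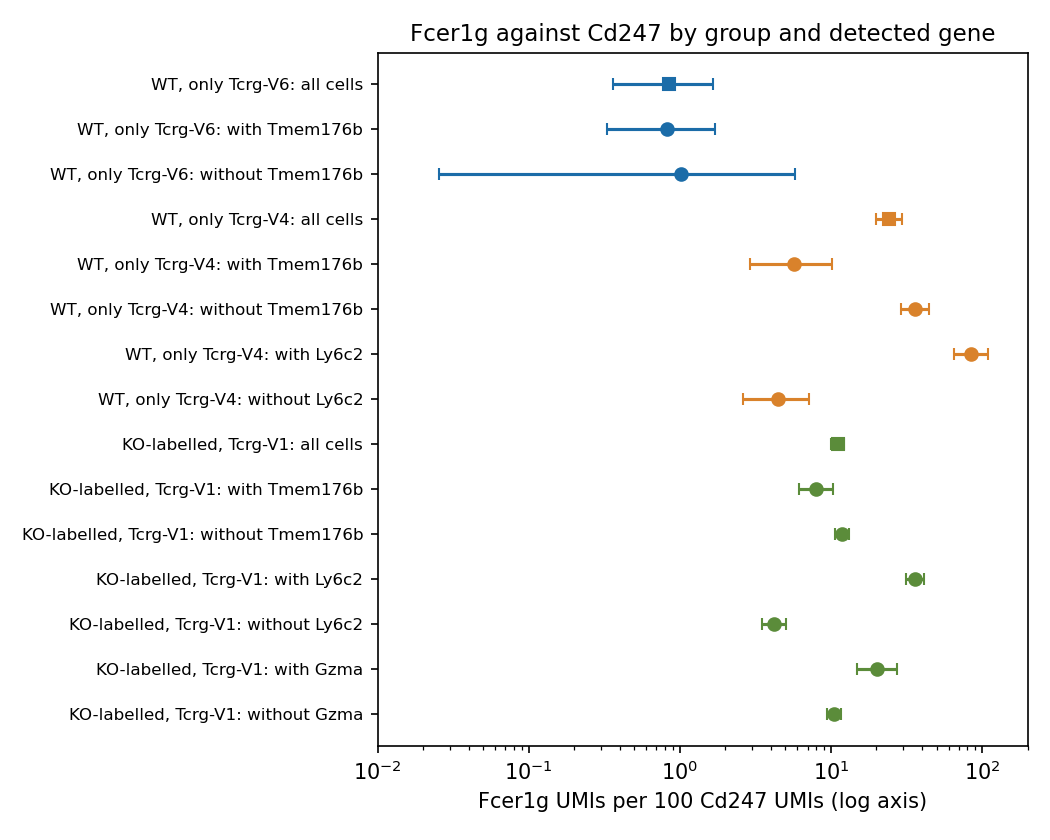
Fcer1g UMIs per 100 Cd247 UMIs (log axis) for each receptor group (squares) and its sides of each split with at least 30 cells on both (circles), with exact 95% intervals. Cells with Ly6c2 lie highest in V4 (84.2) and V1 cells (36.0), and V6 cells lie lowest at 0.841.

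Receptor chain transcripts were also read in the cells with Fcer1g. These numbered 42 of 402 V4 cells and 160 of 2867 V1 cells, with at most 11 and 13 Fcer1g UMIs in 1 cell. Cd3d stood at 705 CPM in the Fcer1g+ and 666 CPM in the other V4 cells, and at 885 and 839 CPM in V1 cells. Cd247 was 287 against 365 CPM in V4 cells (log2 ratio -0.35, -0.77 to 0.05) and 238 against 299 CPM in V1 cells (-0.33, -0.53 to -0.13). Cd3e was also lower, with log2 ratios of -0.47 in V4 and -0.24 in V1 cells. Cd3g stood at 715 against 783 CPM in V4 cells (-0.13, -0.39 to 0.12) and 886 against 990 CPM in V1 cells (-0.16, -0.26 to -0.06). Both Cd5 and Cd6 were higher in Fcer1g+ V4 cells (45.3 against 16.7 CPM, and 50.4 against 18.3 CPM), and in V1 cells they stood at 76.0 against 63.7 CPM and 56.7 against 49.0 CPM. At 2000 UMIs per cell, both Fcer1g and Cd247 were found in 2.72% of V4 cells (7 of 257), 1.13% of V1 cells (20 of 1769) and 0.205% of V6 cells (1 of 488). Cd247 was thus found in 7 of 15 Fcer1g+ V4 cells and 20 of 66 Fcer1g+ V1 cells. Its shares over all cells at this depth are given below. Not thinned, Cd247 was found in 71.4% of Fcer1g+ and 69.4% of other V4 cells, and in 61.9% and 63.7% of V1 cells.

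Transcripts typical of NK, myeloid and mast cells were also read. Their part in the level of Fcer1g was not tested beyond the values given here. Tyrobp, which encodes the ITAM adaptor DAP12 of NK and myeloid cells, stood at 196 CPM in Fcer1g+ V4 cells against 6.09 CPM in the others, and at 106 against 2.72 CPM in V1 cells. The NK cell list (Ncr1, Klrb1c, Klra8, Klra4, Klre1, Eomes) summed to 212 against 28.9 CPM in V4 cells and 186 against 17.0 CPM in V1 cells. In both, 5 of its 6 genes were found in Fcer1g+ cells and Klra4 was at 0. Klrb1c gave 116 of the 174 list UMIs of Fcer1g+ V1 cells and 14 of the 42 of Fcer1g+ V4 cells. Eomes stood at 8.56 against 5.85 CPM in V1 and 45.3 against 9.13 CPM in V4 cells. Not thinned, a Trdc UMI was found in 58.1% against 49.5% of V1 cells and in 47.6% against 37.8% of V4 cells. The myeloid list of 12 genes summed to 80.6 against 8.37 CPM in V4 cells, with 3 genes found and 12 of its 16 UMIs from Lyz2, and to 5.35 against 5.13 CPM in V1 cells, with 4 genes found and Csf1r at 0. All 4 mast cell or basophil genes, among them Fcer1a and Ms4a2, were at 0 in the Fcer1g+ cells of both groups.

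By receptor group the NK list summed to 7.12 CPM in V6 cells (2 of 6 genes), 52.9 CPM in V4 cells (5 of 6) and 28.8 CPM in V1 cells (6 of 6). The myeloid list summed to 10.7, 17.8 and 5.14 CPM. An alpha-beta T cell list (Cd4, Cd8a, Cd8b1, Trac, Trbc1, Trbc2) summed to 671 CPM in V6 cells, with Cd4 and Cd8a at 0. It summed to 1014 CPM in V4 and 1268 CPM in V1 cells, with all 6 genes found. With against without Tmem176b it was 655 against 835 CPM in V6, 806 against 1152 in V4 and 766 against 1522 in V1 cells. The part of these transcripts in the differences of the 7 genes was not tested. Across the Ly6c2 split, the NK list stood at 130 against 19.8 CPM in V4 and 79.1 against 13.4 CPM in V1 cells, and the myeloid list at 8.82 against 21.7 CPM and 2.87 against 5.83 CPM. The alpha-beta T cell list stood there at 1080 against 986 CPM in V4 and 1163 against 1301 CPM in V1 cells. With every cell carrying an NK list UMI left out, the log2 ratio of Fcer1g over the Ly6c2 split was 3.36 in V4 cells and 2.71 in V1 cells. With every cell carrying a myeloid or mast cell list UMI left out it was 4.51 and 2.94. Under the same removals, V6 over V4 cells stood at -4.21 and -4.77. The log2 ratio over the Tmem176b split, -2.69 in V4 and -1.53 in V1 cells, was -3.95 and -1.94 without the cells carrying an NK list UMI.

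At equal depth, an Fcer1g UMI was found in 0.615% of V6 cells (3 of 488), 5.84% of V4 cells (15 of 257) and 3.73% of V1 cells (66 of 1769), and without thinning in 1.35%, 10.4% and 5.58%. As a background, it was found at 2000 UMIs in 0 of 22 WT cells with at least 3 B cell genes, which allows a share of up to 13.6% (3 counts of 22), and in 1 of 21 such KO-labelled cells. Among the cells set aside for at least 3 myeloid genes it was found in 43 of 44 WT cells and 21 of 26 KO-labelled cells. Not thinned, all 49 WT and 35 KO-labelled cells with at least 3 myeloid genes held 2500 and 1678 CPM of Fcer1g. The V6 cells came from the same WT library as the V4 cells and lay below them. The part of background in these shares was not tested.

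Cd3e was found in 92.4% of V6 cells, 79.4% of V4 cells and 85.8% of V1 cells at 2000 UMIs, Cd3g in 88.7%, 75.9% and 84.2%, and Cd3d in 76.6%, 76.3% and 79.6%. At least 1 of these genes was found in 99.6%, 97.7% and 99.0%. Cd247 was found in 60.5%, 55.3% and 40.02%, the same order as its level. Cd5 was found in 3.48%, 3.50% and 10.7%, and Cd6 in 0.820%, 4.67% and 8.42%. No gene but Cd247 therefore had its lowest share of cells in V1 cells.

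With Ly6c2 the share of Cd3d was higher in both libraries. It was 29.5% with and 23.9% without Ly6c2 in V4 cells (difference 5.53 points, 2.40 to 8.75), and 30.5% and 26.2% in V1 cells (4.25 points, 3.19 to 5.32). The level of Cd3d hardly differed, at 670 and 671 CPM in V4 cells and 869 and 833 CPM in V1 cells. Cd3e and Cd3g were lower with Ly6c2, at 661 against 925 CPM and 650 against 827 CPM in V4 cells, and at 878 against 1014 CPM and 832 against 1029 CPM in V1 cells. Cd247 was also lower, at 293 against 381 CPM in V4 cells and 273 against 301 CPM in V1 cells, and its share differed by -0.711 points (-3.01 to 1.77) and 0.0863 points (-0.588 to 0.787). With at least 2 UMIs of the Tcrg-V gene required, the V1 values became a log2 ratio of 0.062 (-0.09 to 0.21) and a share difference of 1.30 points (0.358 to 2.30).

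The co-receptor genes were higher with Ly6c2. Cd5 stood at 39.7 against 12.3 CPM in V4 cells (18 and 13 UMIs) and 77.2 against 60.7 CPM in V1 cells. Cd6 stood at 55.1 against 8.49 CPM in V4 cells (25 and 9 UMIs, log2 ratio 2.70, 1.55 to 3.98) and 67.6 against 44.0 CPM in V1 cells. Between Ly6c2+ cells, V1 over V4, Cd6 had a log2 ratio of 0.30 (-0.31 to 0.96), and between cells without Ly6c2 of 2.37 (1.44 to 3.51). For Cd5 these were 0.96 (0.27 to 1.74) and 2.31 (1.52 to 3.22). With Ly6c2, 3 of 7 genes (Fcer1g, Cd5 and Cd6) were more than 2-fold higher in V4 cells beside 2.19% of genes, and 1 of 7 (Fcer1g) in V1 cells beside 1.54%. None was more than 2-fold lower in either group, beside 8.74% and 4.29%. In V1 over V4 cells that both had Ly6c2, 0 of 7 were higher beside 8.05% and 1 lower (Fcer1g) beside 2.37%. Between those without Ly6c2, 2 of 7 were higher (Cd5 and Cd6) beside 6.53% and 0 lower beside 3.88%.

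Gzma split the V1 cells into 133 with and 2734 without it, at a median of 5118 and 4145 UMIs. Fcer1g was 1 of 7 genes more than 2-fold higher, beside 3.25% of genes, and Cd6 was 1 of 7 more than 2-fold lower, beside 6.93%. Cd6 stood at 24.7 CPM (19 UMIs) against 51.1 CPM (646 UMIs), a log2 ratio of -1.05 (-1.79 to -0.39) that thinning brought to -0.48. The 4 chains lay within 1.19-fold. Cd247 stood at 346 against 291 CPM, and its share at 10.8% against 9.41%, but both differences changed sign on thinning.

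Other genes of TCR-proximal signalling were read from a list of 30. In V6 over V4 cells, 28 had enough UMIs, of which 1 was more than 2-fold higher and 7 lower, beside the 5.42% and 4.9% of all genes given above, and the list median was -0.32 against -0.01. Lck, the kinase that phosphorylates the ITAMs, stood at 28.5 CPM in V6 and 171 CPM in V4 cells, while Zap70, the kinase that binds them, stood at 258 and 125 CPM. The others lower in V6 cells included the costimulatory receptor gene Cd28 (10.7 against 72.0 CPM), Themis (10.2 against 55.5 CPM), a regulator of TCR signals in thymocytes, and Sh2d1a (6.10 against 57.5 CPM), the SAP adaptor. In V1 over V4 cells, 1 of 29 was higher (Cd28, 152 against 72.0 CPM) beside 5.62% of all genes, and 0 lower beside 3.43%. In V1 over V6 cells, 9 of 29 were higher beside 11.5%, among them Sh2d1a, Cd28 and Lck with log2 ratios of 4.06, 3.83 and 3.25, and 1 was lower beside 6.92%, Lat with -1.09, the adaptor that ZAP70 phosphorylates.

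Along the splits, 7 of 28 list genes were lower with Tmem176b in V4 cells beside 6.75% of all genes, with Lck at 43.3 against 255 CPM, and 2 were higher beside 4.18%. In V1 cells 4 of 29 were lower beside 5.31% and 1 higher beside 6.2%. In V6 cells 4 of 24 were lower beside 8.42% and 1 higher beside 7.31%. With Ly6c2, 4 of 28 were higher in V4 cells beside 2.19%, among them Lck (388 against 78.3 CPM) and Cd2 (300 against 68.0 CPM), an adhesion receptor, and 4 were lower beside 8.74%. In V1 cells 1 of 29 was higher beside 1.54%, Cd2 with a log2 ratio of 1.10, and with Gzma 1 of 29 was lower beside 6.93%, Ubash3b with -1.15. Of 11 genes whose products pair with ITAM adaptors or resemble them, only 3 had enough UMIs: Tyrobp, Hcst and Klrk1. Of these, 1 of 3 was more than 2-fold lower in V6 than in V4 cells (Tyrobp), 2 of 3 in V1 than in V4 cells (Tyrobp and Klrk1) and 1 of 3 in V1 than in V6 cells (Klrk1), beside 4.9%, 3.43% and 6.92% of all genes, and 0 were higher. Tyrobp was lower in V6 than in V4 cells (6.10 against 31.1 CPM) and lower in V1 than in V4 cells (9.91 CPM), as Fcer1g was, whereas Hcst, which encodes the adaptor DAP10, stood at 339 CPM in both WT groups and 358 CPM in V1 cells. Klrk1, which encodes the receptor NKG2D, stood at 187 CPM in V6, 164 CPM in V4 and 35.5 CPM in V1 cells, with log2 ratios of -2.21 for V1 over V4 and -2.39 for V1 over V6 cells.

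Across the 10 disjoint groups of at least 30 cells, made from the receptor groups and the states of Tmem176b, Ly6c2 and Gzma, each gene was set against 6912 others by Pearson correlation of log2 CPM. These groups share libraries and depth, and the values are descriptions. Fcer1g was nearest to Ccl5 (0.96), Xpo1 (0.94) and Hhex (0.94), Cd247 to Socs1 (0.88), Klk8 (0.86) and St3gal1 (0.86), and Cd6 to Lck (0.97). Cd5 was nearest to Inpp4b (0.95), Cd3e to Cmtm7 (0.98), Cd3g to Tor2a (0.92) and Cd3d to Ubap2l (0.93). Among themselves, Cd3e and Cd3g ran together (0.91), whereas Cd3d ran with neither (-0.0048 with Cd3e, 0.33 with Cd3g), although Cd3d and Cd3g start 1355 bases apart.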

How the data were processed

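The deposited files are matrices of UMI counts for each gene in each barcode, made by the authors with Cell Ranger on mm10. Version 7.0.0 stands in the file headers (7.0 in the submitters' processing notes) and an older release in the methods. The labels name a 3′ protocol and the methods a V(D)J kit, which reads the 5′ end. Neither the counting of introns nor the use of strand is stated in the sources used here. The matrices were restricted to called cells and not normalised.

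The study's filter (over 200 and under 4000 genes, under 10% mitochondrial UMIs) left 2505 of 2520 WT and 6634 of 6688 KO-labelled barcodes, at medians of 3288 and 3521 UMIs, and more cells than the study gives. Cells with at least 3 of 12 myeloid or at least 3 of 8 B cell genes were then left out (84 WT, 60 KO-labelled). No doublet caller was run and no clusters were made. Sums of UMIs over a group's cells were given as CPM with exact Poisson intervals. Ratios of 2 groups had exact conditional intervals, shares had Clopper-Pearson intervals and differences of shares Newcombe intervals. With 1 library per group there was no test, and a difference was counted as large when past 2-fold among genes with at least 30 UMIs over both groups. A side of a split needed 30 cells. Thinning to 2000 UMIs left out 362 WT and 816 KO-labelled cells, and groups and splits were made again on the thinned counts. Coordinates came from the GENCODE annotation of GRCm38.

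The genes, lists and splits were chosen with earlier results of these data known. The 7 genes, the splitting and Tcrg-V genes were all named, list genes were named when past 2-fold (at most 6 a comparison, by size) while Zap70, Lat and Hcst were chosen after their values were seen, and the genes of most similar pattern had at least 100 UMIs and were detected in at least 10% of a group's cells. Comparisons of V1 with WT cells inside 1 state were added after the data had been seen. Steps were tested on simulated UMI sums. Alternatives concerned the cell filter, the cells left out, depth, the UMIs placing a cell in a group or side, and the weighting of cells. Python 3.11.15 was used with numpy 2.4.6, scipy 1.17.1, pandas 2.3.3, statsmodels 0.14.6 and matplotlib 3.10.9.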

Additional observations from a re-analysis of the deposited data

Results flagged for a closer look

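Cd3d moved in opposite directions with Tmem176b in 2 receptor groups. Its log2 CPM ratio, cells with over cells without Tmem176b, was 0.408 in V6 cells and -0.392 in V1 cells, and the difference between them was not tested. These groups also differ in library, strain and sort, and the V6 cells without Tmem176b numbered 62. Fcer1g was also present in cells that the comparisons of receptor groups leave aside. It stood at 89.5 CPM in the 1024 WT cells with no Tcrg-V UMI, 75.6 CPM in the 191 WT cells with a Tcrg-V1 UMI and 42.1 CPM in the 3707 KO-labelled cells with no Tcrg-V1 UMI.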

How the results depend on the processing

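No paired analysis was possible because every group consists of 1 library. Of 134 alternative values of the 17 main results, 118 stayed within the counting interval of the main value, 16 moved outside it, and 0 changed sign. Some of the 17 are shares of cells with a UMI. A share cannot be negative, so the count of sign changes says nothing about those. On thinning to 2000 UMIs, Cd247 of V1 over V4 cells, both with Tmem176b, moved from -0.96 to -1.35 (log2), and Fcer1g of V1 over V4 cells from -1.40 to -0.70. The latter became -1.77 with at least 2 UMIs of the Tcrg-V gene required and -1.73 with cells of myeloid or B cell genes kept. Fcer1g over the Ly6c2 split of V1 cells became 2.42 with at least 2 Tcrg-V UMIs, 3.35 as a mean over cells and 3.48 without the 5% of cells with most UMIs, against 2.96, and that of V4 cells became 4.77 without cells lacking Trdc and Tcrg constant UMIs, against 3.86. Cd6 of V1 over V6 cells became 4.48 without the 5% of cells with most UMIs, against 3.28. Shares of cells depended on depth. An Fcer1g UMI was found in 10.4% of V4 and 5.58% of V1 cells not thinned and in 2.05% of V1 cells at 1000 UMIs, and both Fcer1g and Cd247 in 7.46% and 3.45% not thinned and in 0% and 0.187% at 1000 UMIs.

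Of the other 159 values, 118 had an interval that left out 0, and 7 of their 1171 alternatives reversed the sign. The 118 also include shares of cells with a UMI, for which no reversal was possible. The other 41 had an interval that held 0, so no direction is read from them, and 70 of their 475 alternatives changed the sign. Besides the 7 reversals, 81 alternatives over the 159 values moved outside the counting interval. Without the cells holding a Y-linked UMI, every value that could be obtained stayed within its interval. Thinning turned the V1 minus V4 difference in Cd3d share to -0.226 points (-0.484 without Ly6c2, -0.351 without Tmem176b), the Cd3e share over the Ly6c2 split of V4 cells to 0.312 points, and Cd247 over the Gzma split of V1 cells to -0.30 (log2) and -1.51 points. Cd247 over the Ly6c2 split of V1 cells became 0.062 with at least 2 Tcrg-V UMIs. The causes were not tested. Leaving out cells with an NK list UMI, or with a myeloid or mast cell list UMI, was added after seeing the data. A value was not obtained under 59 alternatives, where a side held too few cells or UMIs. Low Fcer1g, Cd5 and Cd6 counts in V6 and V4 cells widen the intervals of their ratios.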

Other observations

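Cells outside the receptor groups were read for the same chains. Cd247 took 16.0% of the chain UMIs in WT cells with no Tcrg-V UMI, 12.7% in WT cells with a Tcrg-V1 UMI and 11.7% in KO-labelled cells with no Tcrg-V1 UMI. Its level there was 395, 420 and 341 CPM, above the 295 CPM of the V1 cells. Over whole libraries, Fcer1g stood at 58.3 CPM in WT and 37.1 CPM in KO-labelled cells, and Cd247 took 13.7% and 10.5% of chain UMIs.

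Among cells with at least 10 chain UMIs (378 V6, 177 V4 and 2001 V1 cells), the median share of Cd247 in a cell was 12.5%, 10.0% and 8%, and that of Cd3d 18.8%, 25% and 26.7%. The lower quartile of the Cd247 share was 0% in V1 cells, against 6.67% in V6 and 7.14% in V4 cells. No chain UMI was found in 4 V6, 4 V4 and 17 V1 cells.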
